A study of Mus musculus with 18 samples.

Results

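The GFP-negative cells of the Taar5 line were described here by their own transcriptome. They are the cells of the main olfactory epithelium (MOE), the neuronal sheet of the nose, that carried no GFP signal when dissociated tissue was passed through a fluorescence-activated cell sorter. The group was chosen by the labels and holds 9 of the 18 libraries of the series. The mice carried the Taar5-ires-Cre knock-in allele, which makes Cre recombinase from the Taar5 transcript, and the lox-L10-GFP reporter, which Cre switches on. By the labels the strain was C57BL/6 and the age postnatal day 11 to 14 in all 9 libraries. A mixed background and an older age, in weeks rather than days, are given in the study's reporting summary. The other libraries are 7 GFP-positive ones of the same line, 1 ZsGreen-positive and 1 ZsGreen-negative library of the Taar6-ires-Cre; lox-ZsGreen line at postnatal day 16 to 17. The cells were gated on the absence of a reporter and not on a marker of their own, so every cell type of the MOE that survived dissociation could be present. Libraries were made with Smart-seq2, which amplifies cDNA by PCR without molecular identifiers. The number of cells behind each library is not given in the sources used here.

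An olfactory sensory neuron (OSN) settles on 1 allele of 1 odorant receptor (OR) gene and sends the odour signal through a cascade of G protein, adenylyl cyclase and a cyclic nucleotide-gated channel. A small share of OSNs uses a trace amine-associated receptor (TAAR) instead. New OSNs arise throughout life from basal stem cells: horizontal and globose basal cells give rise to progenitors, then to immature neurons marked by Gap43 and Gng8, and then to mature neurons marked by Omp. Sustentacular cells support the neurons, Bowman's glands secrete mucus, microvillar cells are a sparse epithelial type, and ensheathing glia wrap the axons below the epithelium.

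Values are TPM, the length-corrected share of a transcript in its library, with the same total in each library. They keep no sequencing depth, so no counting error can be given, and a gene listed at 0 may only have failed to be estimated. The number of genes above 0 ran from 11259 to 16888 in 8 libraries and was 5878 in replicate 2. Replicate 2 stood apart in other ways too. A median of 50 TPM or more was reached by 3308 genes, of which 664 were listed at 0 in replicate 2, against 1 to 18 in each other library. The correlation of log2(TPM + 1) across all genes was 0.63 to 0.66 for pairs with replicate 2 and 0.81 to 0.96 for the other pairs. Its values for all 13 Taar genes above 0 were identical to those of replicate 1, and 0 other genes above 0 were, so the Taar values of replicate 2 were left out. Results are given with and without this library.

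Markers of mature OSNs were among the most abundant transcripts, beside ribosomal RNA precursor and Tmsb4x. S100a5, an EF-hand calcium-binding protein of OSNs, had the highest median of all genes, 24921 TPM, with a range of 15670.5 to 39632. It was the first gene in 5 of the 9 libraries (replicates 1, 4, 5, 6 and 8). Stoml3, a stomatin-like protein of OSN cilia, had a median of 13655 TPM (8364 to 24318). Omp, the olfactory marker protein, had a median of 12865 TPM (3908 to 20069.9). Gng13, a G protein gamma subunit of the transduction cascade, had a median of 8920 TPM (3894 to 14858). Each of these 4 genes was among the first 25 in all 9 libraries, and the lowest Omp and Gng13 values were those of replicate 2.

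**Figure D1:**
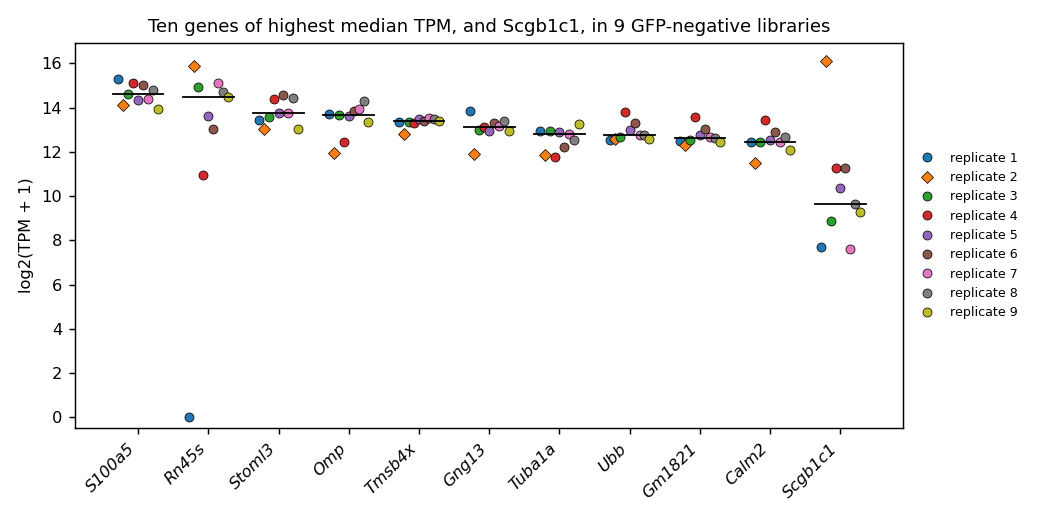
Expression of the 10 genes with the highest median TPM, and of Scgb1c1, the first gene of replicate 2. The vertical axis is log2(TPM + 1), each point is a library, the diamond is replicate 2 and the bar is the median of 9 libraries. Rn45s was listed at 0 in replicate 1, and Scgb1c1 in replicate 2 lay above all other libraries.

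The sequences around the start of 3 of these genes are shown because the genes lead the table. That of Olfr1030, with a median of 46.1 TPM, is shown as an example of the highest OR genes whose starts agree between both annotations. Olfr566 ranked above it by median among those genes, and its sequence is not shown. The sequences are RefSeq windows on GRCm38.p6, from 250 bases before to 50 bases after the start. Capitals mark letters that match CCCNNGGG, the core of the site of Ebf factors, or TAATTA or TAATGA, homeodomain-type words, searched on both strands.
S100a5 (chr3:90608272-90608571, plus strand): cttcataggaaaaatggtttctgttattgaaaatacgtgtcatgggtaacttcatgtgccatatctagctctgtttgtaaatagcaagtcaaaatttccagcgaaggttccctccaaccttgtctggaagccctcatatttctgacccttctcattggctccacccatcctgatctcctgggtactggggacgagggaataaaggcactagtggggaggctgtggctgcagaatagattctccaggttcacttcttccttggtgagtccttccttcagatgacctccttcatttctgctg
Stoml3 (chr3:53488457-53488756, plus strand): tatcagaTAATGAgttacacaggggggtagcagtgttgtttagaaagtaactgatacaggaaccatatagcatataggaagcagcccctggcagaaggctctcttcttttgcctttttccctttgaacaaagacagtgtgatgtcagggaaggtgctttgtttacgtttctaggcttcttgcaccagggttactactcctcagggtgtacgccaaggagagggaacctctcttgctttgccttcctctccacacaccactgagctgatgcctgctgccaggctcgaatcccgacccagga
Gng13 (chr17:25716922-25717221, plus strand): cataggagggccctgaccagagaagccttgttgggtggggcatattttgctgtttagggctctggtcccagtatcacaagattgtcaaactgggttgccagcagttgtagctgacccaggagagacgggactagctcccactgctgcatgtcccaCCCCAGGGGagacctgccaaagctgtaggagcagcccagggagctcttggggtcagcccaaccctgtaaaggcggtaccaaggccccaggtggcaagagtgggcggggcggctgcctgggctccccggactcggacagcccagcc
Olfr1030 (chr2:85979062-85979361, plus strand): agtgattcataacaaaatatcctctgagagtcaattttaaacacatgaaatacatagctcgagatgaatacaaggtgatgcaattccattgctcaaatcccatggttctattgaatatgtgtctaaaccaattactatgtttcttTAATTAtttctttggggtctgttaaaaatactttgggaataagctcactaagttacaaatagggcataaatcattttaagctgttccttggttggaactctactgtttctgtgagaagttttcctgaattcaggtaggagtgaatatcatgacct
The S100a5 window held no match to the 3 words, and neither did the Olfr566 window. The Stoml3 window held 1 match to TAATGA, the Gng13 window 2 overlapping matches to CCCNNGGG and the Olfr1030 window 1 match to TAATTA. Among 15024 windows whose RefSeq start lay within 100 bases of the GENCODE M21 start, 15.4% held CCCNNGGG and 11.5% held TAATTA or TAATGA. The 147 such windows of OR genes held them in 11.6% and 47.6%, and their median A and T content was 63.7%, against 44.0% over all windows. Of the 925 OR windows, 147 (15.9%) met that condition, and the median distance between both starts was 2736 bases, so most OR windows do not cover the annotated promoter. A match is a description of the letters and not a site.

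The rest of the 25 highest medians were led by Tmsb4x and tubulin, ubiquitin and calmodulin genes. Tmsb4x, an actin-binding thymosin, had a median of 10855 TPM. It ran from 10182 to 11709 TPM in the 8 libraries other than replicate 2, where its value was 7286 TPM. Tuba1a, an alpha tubulin, had 7213 TPM, the ubiquitin gene Ubb 6896 TPM, and the calmodulin gene Calm2 had 5630.5 TPM. Of the 50-base words in the Tuba1a transcripts 72.9% also occur in another gene, and of those in Ubb 48.1% do, mostly in Gm1821, a ubiquitin copy with 6431 TPM, so these 3 values are uncertain. Plekhb1, a pleckstrin homology domain protein, had 4693 TPM, Stom, a stomatin, 3145 TPM, the creatine kinase gene Ckb 3354 TPM and Nsg1, a neuronal vesicle protein, 2540.4 TPM. Genes of the respiratory chain and ATP synthase followed, with Cox4i1 at 2939 TPM, Ndufa4 at 2368 TPM and Atp5b at 2317 TPM. The other members named here were Tmem66, Rpl41, Actb, Hspa8, H3f3b, Atox1 and Mir703, with medians of 2221 to 5012 TPM.

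The 25 highest genes of a library took 15.1 to 19.8% of its TPM, and 28.9% in replicate 2. Rn45s, the precursor of ribosomal RNA, was the first gene in replicates 3, 7 and 9. Its median was 22654 TPM, and its values ran from 0 in replicate 1 to 61058 TPM in replicate 2. Scgb1c1, a secretoglobin of the nasal mucosa, was the first gene in replicate 2 at 71782 TPM, against 195 to 2495 TPM in the other 8 libraries.

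The genes of the transduction cascade were all expressed. Gnal, the olfactory G protein alpha subunit, had a median of 1412 TPM with a range of 279.6 to 1720.5. Adcy3, the adenylyl cyclase, had a median of 831 TPM (202 to 1697), the channel subunits Cnga2, Cnga4 and Cngb1 had 1464, 974 and 119 TPM, and the chloride channel gene Ano2 had 415 TPM. Rtp1 and Rtp2, chaperones that bring ORs to the surface, had medians of 864 and 585 TPM. Replicate 2 held the lowest value of Gnal, Cnga2, Cnga4, Cngb1, Ano2, Rtp1 and Rtp2, and replicate 4 the lowest of Adcy3.

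Not all of these genes varied together. Replicate 4 was low in Omp (5508 TPM), Adcy3 (202 TPM) and Cngb1 (36.8 TPM) but high in Stoml3 (21638 TPM), S100a5 (35607 TPM) and Cnga2 (2016.5 TPM). Across the 9 libraries and among these 3308 genes, the log2(TPM + 1) of Cngb1, Chga, Rassf7, Slc30a5 and Tubb4b was most like that of Omp, with Pearson r from 0.970 to 0.976. Without replicate 2 the first 5 were Nfatc1, Ppp1r42, Adcy3, Gnb5 and Tuba4a, with r from 0.971 to 0.990 over 8 libraries. Stoml3 had an r with Omp of 0.37 over 9 libraries and 0.02 over 8, and S100a5 had 0.22 and −0.12. These are descriptions over libraries that also differ in the number of genes detected.

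OR transcripts were a small share of each library. The 1097 OR genes together took 1.35 to 2.03% of the TPM in 8 libraries and 0.617% in replicate 2. In TPM the sum ran from 13477 in replicate 9 to 20251 in replicate 4, with 6174 in replicate 2. No OR gene was among the first 50 genes of any library. In each library the OR sum was spread over a different number of genes. OR genes at 1 TPM or more numbered 902 in replicate 9, 894 in replicate 1, 836 in replicate 3, 744 in replicate 5, 645 in replicate 6, 413 in replicate 4, 290 in replicate 7, 254 in replicate 8 and 37 in replicate 2. Among the 8 libraries other than replicate 2, that number thus varied far more than the sum. The libraries with fewer detected ORs had more TPM per detected OR, from 14.9 TPM in replicate 9 to 62.9 TPM in replicate 8, and 167 TPM in replicate 2.

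**Figure D2:**
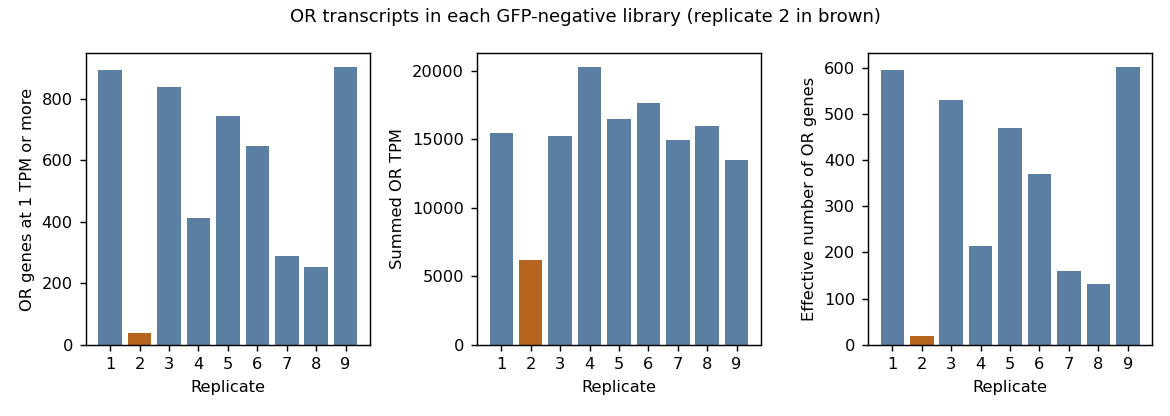
OR transcripts in each of the 9 libraries. The panels show the number of OR genes at 1 TPM or more, the summed OR TPM and the effective number of OR genes, all from 0, with replicate 2 in brown. The sum varied less than the number of genes, which ran from 37 to 902.

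The effective number of OR genes, the exponential of the Shannon entropy of their shares, gives the number of equally expressed genes that would be as even. It was 601 in replicate 9 and 595 in replicate 1, 530 in replicate 3, 470 in replicate 5, 370 in replicate 6, 214 in replicate 4, 160 in replicate 7, 132 in replicate 8 and 18.7 in replicate 2, with a median of 369.7. The 10 first OR genes took 6.26% of the OR sum in replicate 9 and 23.4% in replicate 8, and 73.5% in replicate 2. The number of all genes above 0 was also lower in replicates 4, 7 and 8 (11259 to 11603) than in replicates 1, 3, 5, 6 and 9 (14527 to 16888). The part of this difference in the OR values was not tested.

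Most of the repertoire was present in at least 1 library. Of the 1097 OR genes, 1066 reached 1 TPM in at least 1 of the 9 libraries, 624 did so in at least 5, and 10 were listed at 0 in all 9. None reached 1 TPM in all 9, and 30 did in the 8 libraries other than replicate 2. Those 30 included Olfr1348, Olfr15, Olfr1347 and Olfr116. All 37 OR genes of replicate 2 also reached 1 TPM in another library. Since depth is unknown, an OR gene listed at 0 is not shown to have been absent from the sample.

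The OR genes at the top differed between libraries. Olfr1348 had the highest median, 121 TPM, with 409 TPM in replicate 4, 256 TPM in replicate 6, 178 TPM in replicate 5, 108 to 127 TPM in replicates 1, 3, 7 and 9, 14.9 TPM in replicate 8 and 0 in replicate 2. It lies on chromosome 7 (6499793 to 6508748, GRCm38) beside Olfr1347 (6486944 to 6499755), whose median was 64.9 TPM. Of the 50-base words of Olfr1348 transcripts 13.7% also occur elsewhere, mostly in Olfr1347, and 24.99% of those of Olfr1347 do, so reads may have been divided between them.

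Olfr672, on chromosome 7 from 104995760 to 105002029, had the second highest median, 109 TPM. It was the first OR in replicates 1, 3, 7 and 9, at 144, 166, 1111 and 112 TPM. It was listed at 0 in replicates 2, 4 and 8 and had 0.244 TPM in replicate 6, so its values fell into a high and an undetected set. Olfr15, on chromosome 16 from 3830878 to 3844747, had a median of 85.6 TPM. It was the first OR in replicates 6 and 8, at 346 and 753 TPM, ran from 48.3 to 109.9 TPM in replicates 1, 3, 4, 5, 7 and 9, and was listed at 0 in replicate 2. The other medians among the first 10 were those of Olfr1176, Olfr116, Olfr689, Olfr1347, Olfr131, Olfr1046 and Olfr309, from 70.4 down to 61.0 TPM. Each of these 7 genes was listed at 0 in replicate 2, and Olfr1176, Olfr131, Olfr1046 and Olfr309 in at least 1 other library.

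**Figure D3:**
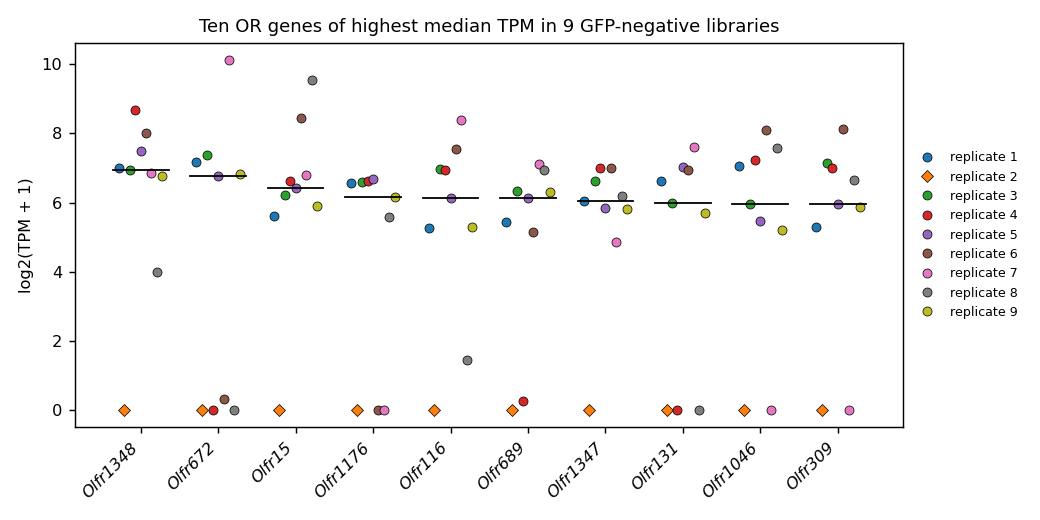
The 10 OR genes with the highest median TPM in the 9 libraries. The vertical axis is log2(TPM + 1), each point is a library, the diamond is replicate 2 and the bar is the median. All 10 were at 0 in replicate 2, and Olfr672 and Olfr131 were also at 0 in replicates 4 and 8.

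A few ORs were high in 1 library. Olfr703 had 972 TPM in replicate 2, where it was first, and 0 to 105 TPM elsewhere, with a median of 6.56 TPM. Olfr48 had 935 TPM in replicate 4, where it was first, 148 TPM in replicate 7, 53.2 TPM in replicate 9, 6.88 TPM in replicate 1 and 0 in the other 5 libraries. By mean TPM the order was Olfr672, Olfr15, Olfr1348, Olfr703 and Olfr48, with means of 182.6, 175, 148, 129.8 and 127 TPM. The last 2 ranked 351 and 731 by median.

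The ranks of OR genes agreed little in most pairs of libraries and more among the libraries with the most detected ORs. Spearman's rho across the 1097 OR genes had a median of 0.19 over the 36 pairs of libraries and a range of −0.04 to 0.55. Without replicate 2 the median of the 28 pairs was 0.25, with a range of 0.08 to 0.55. The pairs among replicates 1, 3, 5 and 9, which had the most OR genes at 1 TPM or more, had rho from 0.44 to 0.55. Every other pair had at most 0.34. Over the OR genes at 1 TPM or more in at least 5 of 9 libraries the median of the 36 pairs fell to 0.07. Of the first 50 OR genes of a library, a median of 13 (26.0%) were among the first 50 of another library without replicate 2. The range was 5 to 19, and 0 to 5 in pairs with replicate 2. The overlap of 50 genes drawn at random from the 1097 was not computed. These coefficients are across genes, which are not independent replicates, and the pairs differ in how many ORs were detected.

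The ZsGreen-negative library of the Taar6 line had 986 OR genes at 1 TPM or more, an OR sum of 12685 TPM and an effective number of 706. Its first OR was Olfr15, at 116 TPM, and Olfr1348 and Olfr672 ranked 14 and 16. Its rho with the median profile of the GFP-negative libraries was 0.56, and with single libraries it ran from 0.22 in replicate 8 to 0.52 in replicate 9, with 0.06 in replicate 2. Line, reporter and age differ between the groups and cannot be told apart with 1 library.

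Class I ORs, the fish-like receptors that are mostly used in the dorsal zone of the MOE, were compared with class II ORs within each library. Class I was taken as the 124 OR genes on chromosome 7 from 102476579 to 105369355, within 2 Mb of the beta-globin genes, and class II as the other 961 with a position. Class I made up 11.4% of these genes and 6.32 to 23.3% of the OR TPM. Its mean TPM per gene was 18.2 ± 9.8 (SD, n = 9) and that of class II was 13.1 ± 3.5 (SD, n = 9). The mean log2 ratio of class I to class II was 0.27 ± 0.85 (SD, n = 9), with class I higher in 6 of 9 libraries, and an exact two-sided sign-flip permutation test gave p = 0.352, where the smallest possible p is 0.00391. Without replicate 2 the mean was 0.39, with class I higher in 6 of 8 libraries and an exact permutation p of 0.219. The difference was smaller than the spread between libraries. Among ORs at 1 TPM or more in at least 5 of 9 libraries the mean log2 ratio was 0.04 (exact permutation p = 0.883). Without the OR gene of highest mean TPM in each class it was 0.20 (exact permutation p = 0.430). With the mean log2(TPM + 1) per gene the difference was larger, 0.40 (exact permutation p = 0.0781). A median of at least 1 TPM was reached by 67.7% of class I and 55.4% of class II genes.

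The 3 libraries below class II were replicates 2, 6 and 8. In replicate 2 the class I value rested on 1 gene, Olfr594 at 425 TPM, and 34 class II genes reached 1 TPM. In replicate 8, 20 class I genes reached 1 TPM. The log2 ratios of replicates 2, 6 and 8 were −0.68, −0.94 and −0.81, against 0.46 to 1.24 in the other 6. Nqo1, a marker of dorsal OSNs, also had its 3 lowest values there, 479, 1092 and 1039 TPM, against 1418 to 1742 TPM elsewhere. Acsm4, the other dorsal gene, did not follow, with 812, 418 and 349 TPM in those libraries and 247 to 836 TPM in the others. The genes of the ventral zone Ncam2, Nfia, Nfib and Nfix had medians of 33.4, 4.44, 12.0 and 35.4 TPM. Nfia also had its 3 lowest values in replicates 2, 6 and 8, 1.61, 2.87 and 2.34 TPM, against 3.51 to 8.91 TPM elsewhere. Ncam2 was lowest in replicate 4 and next lowest in replicates 2, 6 and 8. Nfib was lowest in replicates 2 and 6, while Nfix was highest in replicate 2. The ventral genes did not all follow the same pattern over these libraries, and neither did the dorsal genes. The part of dissection or zone in the class ratio was not tested.

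The OR sum was also divided by chromosome, as a description with no test. Chromosome 2 held 280 OR genes, 25.8% of those with a position, and a median of 23.8% of the OR TPM. Chromosome 7 held 235 (21.7%) and took 26.5%, with a range of 15.9 to 33.6%. Chromosome 9 held 130 (12.0%) and took 8.42%. In replicate 2, chromosome 1 took 18.3% with its 26 OR genes, against 1.65 to 2.75% in the other libraries.

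Taar genes were expressed at low levels. In the 8 libraries with values of their own, the summed Taar TPM ran from 94.5 in replicate 8 to 403 in replicate 7. Taar6 had the highest median, 29.0 TPM, and ran from 0 to 91.5 TPM. Taar5, the gene that drives Cre, had a median of 0.111 TPM, was listed at 0 in 4 of the 8 libraries and reached 7.71 TPM in replicate 9. The Taar7 genes a, b, d, e and f had medians of 11.6 to 15.7 TPM, and Taar7f reached 200 TPM in replicate 7. Taar1 was listed at 0 in all 8. The Taar7 and Taar8 genes are close copies, so reads may have been divided between them.

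Genes of immature OSNs and progenitors varied most clearly among the neuronal lists. Here and below, a lower value can mean fewer cells of a type or less RNA per cell, which cannot be told apart in bulk samples. Gap43, a growth-cone protein, had 461 to 1090 TPM in 7 libraries but 71.0 TPM in replicate 6 and 102 TPM in replicate 8. Gng8, the G protein gamma subunit of immature OSNs, had 93.4 to 240 TPM in those 7 libraries, and 7.52 and 5.21 TPM in replicates 6 and 8. Dpysl3, an axon-guidance protein, had 245 to 516 TPM in the 7 libraries and 40.1 and 26.5 TPM in the pair. Stmn2, a microtubule-destabilising protein, had 181 and 298 TPM in the pair and 384 to 1133 TPM elsewhere. For these 4 genes replicates 6 and 8 lay below all other libraries. Tubb3, a neuronal tubulin that mature OSNs share, had 483 and 775 TPM there and did not, since replicate 4 had 458 TPM.

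The progenitor genes were low in the same libraries. Neurod1, a proneural transcription factor, had 36.2 to 66.5 TPM in replicates 1, 3, 4, 5, 7 and 9, and 1.86 TPM in replicate 6 and 0 in replicates 2 and 8. Top2a, a topoisomerase of dividing cells, had 9.34 to 22.1 TPM in those 6 libraries, 2.02 TPM in replicate 6 and 0 in replicates 2 and 8. Tex15 had 8.62 to 33.6 TPM in the 6 libraries and at most 2.19 TPM in the other 3. The proliferation marker Mki67 was at most 9.29 TPM, the neuronal determination gene Neurog1 at most 13.8 TPM and the receptor gene Kit at most 14.6 TPM, all small beside the neuronal genes.

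**Figure D4:**
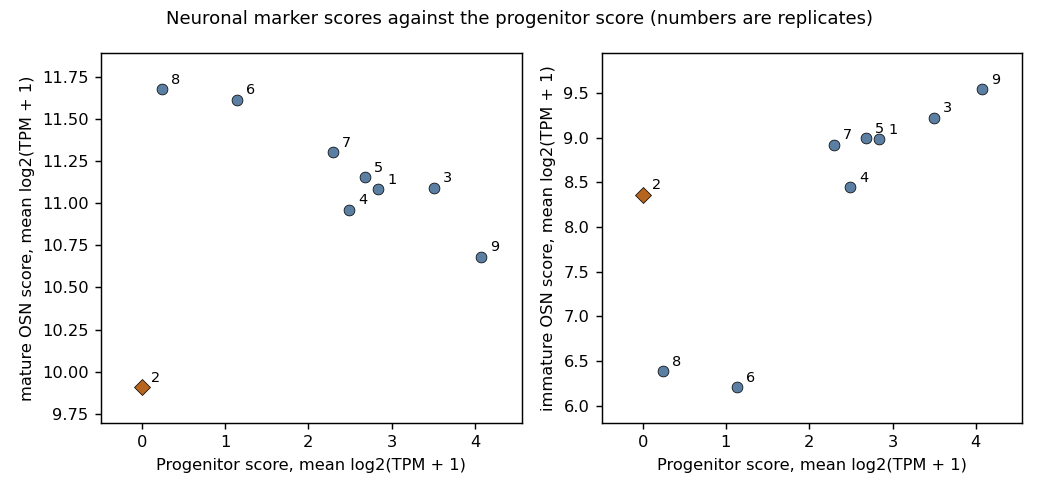
Mature OSN score (left) and immature OSN score (right) against the progenitor score of each library, all as mean log2(TPM + 1) of the list. Points are the 9 libraries, numbered by replicate, with replicate 2 as a brown diamond. Replicates 6 and 8 combine low progenitor and immature scores with the highest mature scores, and replicate 2 has the lowest mature score.

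List scores, the mean log2(TPM + 1) of each list, were compared across libraries in 45 pairs of 10 scores with exact two-sided permutation tests. Over the 9 libraries none of the 45 pairs had an adjusted p under 0.05 and 10 had an unadjusted p under 0.05. Without replicate 2, 2 of 45 pairs did and 6 had an unadjusted p under 0.05. The mature OSN score fell as the progenitor score rose (r = −0.93, exact permutation p = 0.00191, adjusted p = 0.0430, n = 8, Spearman rho = −0.83 with an exact p of 0.0154 and an adjusted p of 0.231). The immature OSN score rose with the progenitor score (r = 0.92, exact permutation p = 0.00109, adjusted p = 0.0430, n = 8, rho = 0.93 with an exact p of 0.00223 and an adjusted p of 0.1004). Replicates 6 and 8 lay apart from the other 6 in the immature score. Among those 6 libraries r was −0.77 (exact permutation p = 0.0708) for the first pair and 0.85 (exact permutation p = 0.025) for the second, and rho was −0.60 (exact permutation p = 0.242) and 0.89 (exact permutation p = 0.0333). With replicate 2 included, r was 0.02 for the first pair (adjusted p = 0.985, exact permutation test) and 0.75 for the second (adjusted p = 0.141, exact permutation test). Both calls were also lost with a pseudocount of 0.1, quantile normalization, ranks, or when any other library than replicate 4 was left out too. TPM are shares of a whole, so a score can fall because others rise.

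**Figure D5:**
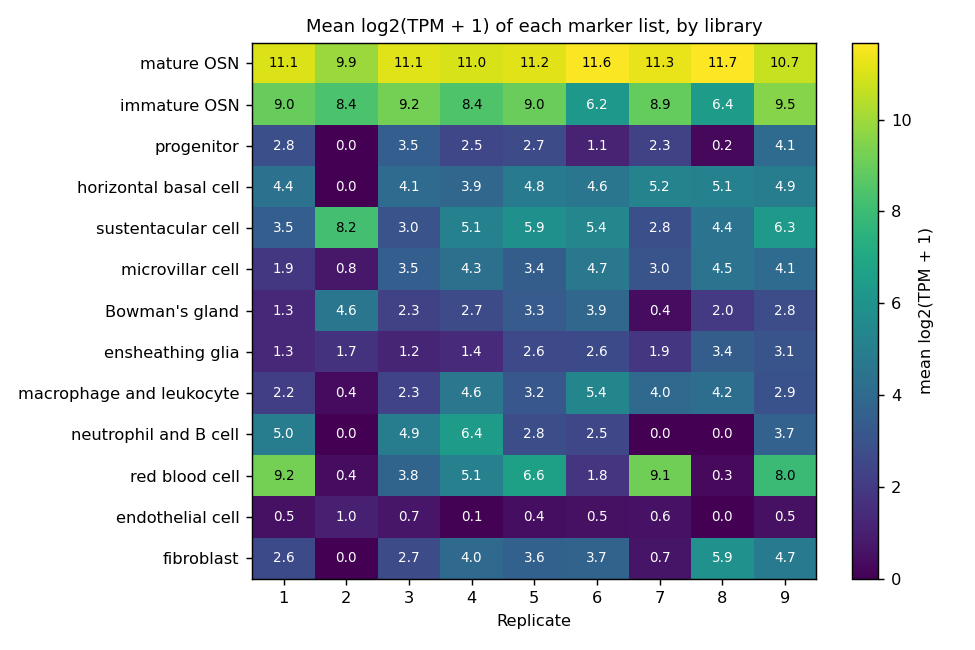
Scores of 13 marker lists in the 9 libraries, as mean log2(TPM + 1) of the genes of each list. Colours and numbers give the score, from 0 upward, with libraries as columns. The mature OSN list had the highest score in every library, and replicate 2 had the highest sustentacular and gland scores and scores of 0 for 4 lists.

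Summed markers of every other cell type listed were lower than those of mature OSNs in each library. The summed TPM of the 8 mature OSN genes ran from 35028 in replicate 2 to 85614. Scgb1c1 and Vmo1, which encode secreted proteins and were on no list, each exceeded that sum in replicate 2, at 71782 and 36592 TPM. Red blood cell genes summed to as much as 9699 TPM, in replicate 1. Sustentacular genes summed to 95.2 to 1125 TPM in 8 libraries, with Cyp2g1, an olfactory cytochrome P450, at 13.9 to 490.3 TPM. In replicate 2 the sum was 8976 TPM, with Cyp2g1 at 3547 TPM, Ugt2a1, a glucuronosyltransferase, at 2651 TPM and Cyp1a2, another cytochrome P450, at 2464 TPM. Muc2, a mucin gene of the same list, was listed at 0 there. Sec14l3, also of that list, was not raised in replicate 2, with 159 TPM against 10.6 to 231 TPM in the other libraries. Bowman's gland genes summed to 2.83 to 186 TPM in 8 libraries and to 1150 TPM in replicate 2, where the water channel gene Aqp5 had 1009 TPM, the transcription factor gene Sox9 71.4 TPM and the mucin gene Muc5b 68.6 TPM. The other gland genes were not raised there, with 0.481 TPM of Gpx6 and 0 of Bpifb9b. Over 9 libraries these scores had r = 0.86 (exact permutation p = 0.00317, adjusted p = 0.0714, rho = 0.88 with an exact p of 0.00308 and an adjusted p of 0.0692), and r without the 2 farthest libraries, replicates 2 and 7, was 0.69. Without replicate 2 r was 0.79 (exact permutation p = 0.0201, adjusted p = 0.226), so the pair did not pass the threshold in either set.

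The basal, progenitor, neutrophil and B cell, and fibroblast lists were all at 0 in replicate 2. Krt14, a keratin of horizontal basal cells, ran from 33.0 to 80.6 TPM in the other libraries, Krt5 from 3.74 to 49.2 TPM and Trp63 from 4.34 to 16.5 TPM. The score of the horizontal basal cell list was 4.62 ± 0.48 (SD, n = 8) in these libraries, with a range of 3.87 to 5.21.

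The summed TPM of both the microvillar and the macrophage lists was highest in replicates 4, 6 and 8, but not every member followed. Ascl3, a transcription factor of microvillar cells and glands, had 476, 564 and 601 TPM in replicates 4, 6 and 8, against 11.7 to 126 TPM in replicates 1, 3, 5, 7 and 9 and 0 in replicate 2. Foxi1, a transcription factor of ionocyte-like cells, was highest in replicates 8 (86.4 TPM) and 6 (46.5 TPM) and had 14.4 TPM in replicate 4. Trpm5, a cation channel of another microvillar type, was highest in replicate 5 (11.1 TPM) and listed at 0 in replicates 4 and 8. Tyrobp, a signalling adaptor of myeloid cells, had 251, 155 and 136 TPM in replicates 4, 6 and 8, and 25.01 to 59.9 TPM in replicates 1, 3, 5, 7 and 9. C1qb, a complement component of macrophages, had 87.2, 141 and 106 TPM in those 3 libraries and 0 to 35.0 TPM in the others. Cx3cr1, a chemokine receptor of macrophages, was highest in replicate 7 (17.3 TPM) and listed at 0 in replicate 4. C1qc, the partner of C1qb, had 3.86 TPM in replicate 8 and 31.7 TPM in replicate 7. Over 9 libraries the scores of both lists had r = 0.87 (exact permutation p = 0.00180, adjusted p = 0.0714, rho = 0.83 with an exact p of 0.00827 and an adjusted p of 0.124). Without replicate 2 r was 0.73 (exact permutation p = 0.0364, adjusted p = 0.273), and r without replicates 1 and 6 as well was 0.41.

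Blood genes differed strongly between libraries. Hba-a1, an alpha-globin gene, had 6192 TPM in replicate 1, 3587 TPM in replicate 7, 2415 TPM in replicate 9, 1727 TPM in replicate 4, 979 TPM in replicate 5 and 145 TPM in replicate 3, and 1.14 to 1.73 TPM in replicates 2, 6 and 8. Beta-s, the beta-globin gene also called Hbb-bs, followed it with 2985 TPM in replicate 1 and at most 3.75 TPM in replicates 2, 6 and 8. The neutrophil gene S100a8 had 1675 TPM in replicate 4, 76.2 to 382 TPM in replicates 1, 3, 5, 6 and 9, and 0 in replicates 2, 7 and 8, and S100a9, its partner, had 675 TPM in replicate 4. The B cell genes Cd79a and Cd79b were at most 18.3 and 21.6 TPM. Endothelial genes were near 0: Kdr and Flt1 were listed at 0 in all 9 libraries, and the list summed to at most 5.97 TPM outside replicate 2, which had 32.1 TPM of Pecam1. Fabp7, a fatty acid-binding protein of ensheathing glia, ran from 12.6 to 108 TPM outside replicate 2. Col1a1, a fibroblast collagen, reached 79.8 TPM in replicate 8. The part of these cells in the differences between libraries described above was not tested.

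Neurons other than canonical OSNs left small signals. Trpc2, the channel of vomeronasal neurons, ran from 3.46 to 34.5 TPM outside replicate 2 and was listed at 0 there. Gucy2d, the receptor guanylyl cyclase of a small OSN group, was at most 5.04 TPM, and Gucy1b2, a soluble guanylyl cyclase subunit, at most 25.9 TPM. Car2, a carbonic anhydrase, had a median of 80.2 TPM and ran from 11.3 TPM in replicate 4 to 179 TPM in replicate 6. Of the 7 immediate early genes, Arc and Npas4 were listed at 0 in some libraries. Fos had a median of 522 TPM (232 to 1243), Ier2, another early response gene, 220.3 TPM, Junb 105 TPM and Egr1 85.5 TPM, while Arc and Npas4 were at most 15.3 and 1.63 TPM.

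The sex-linked genes differed between libraries. Xist, the X-inactivation RNA, had 12.5 to 40.6 TPM in replicates 1, 3, 5, 6 and 9, 2.73 TPM in replicate 2, and less than 1 TPM in replicates 4, 7 and 8. Eif2s3y, on the Y chromosome, had 11.6 to 84.9 TPM in replicates 1, 3, 4, 7, 8 and 9 and was listed at 0 in replicates 2, 5 and 6. Both were thus detected in replicates 1, 3 and 9. The labels do not give the sex or the number of animals behind a library.

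Variation between libraries was ranked by the SD of log2(TPM + 1) among the same 3308 genes. The median SD was 0.62 over 9 libraries and 0.42 without replicate 2. OR genes varied more: the 20 OR genes that passed this filter had a median SD of 2.90, against 0.62 for the other genes. Of these 20, 17 were among the 100 most variable of the 3308 genes. Without replicate 2 the values were 2.40 and 0.42, with 15 among the 100. The medians of these OR genes lay between the 50 TPM limit and 121 TPM, and the other genes were not matched to them for level or for values at 0. The most variable genes of all were Snora31, Snora65, Hba-a1, Rn45s, Snora64, Beta-s, Hbb-b2, Mir546, S100a8 and Olfr672. They comprise small RNAs and ribosomal RNA, globin genes, a neutrophil gene and an OR gene. Snora31 was listed at 0 in replicates 4, 7, 8 and 9 and had 1069 to 3173 TPM in the other 5. Without replicate 2, Hbb-b1 took the place of Mir546 among the first 10. Small RNAs are shorter than the fragments of a Smart-seq2 library, and length correction raises the TPM of short genes, so their levels are uncertain.

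The least variable genes depended on replicate 2. Atp5f1, an ATP synthase subunit, had the lowest SD over 9 libraries, 0.12, with 371 to 499.9 TPM. Ndufs3, Mrpl28, Adrm1, Elp5, Atp5o, Hypk, Cct5, Diablo and Atp5j followed. Without replicate 2 the first was Tmsb4x, with an SD of 0.07, followed by Atp5f1, Cops6, Eef1d, Scn9a, Dctn3, Mpc1, Psma2, Ndufs3 and Ociad1. Scn9a, a voltage-gated sodium channel of sensory neurons, had 86.2 to 110.1 TPM in the 8 libraries and 4.70 TPM in replicate 2.

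The first principal component of the same genes held 75.4% of the variance and separated replicate 2, with a score of 168, from the others, with scores of −24.4 to −13.1. Its positive end was led by Vmo1, Wfdc18, Agr2, Scgb1c1 and Snora31. Vmo1, a secreted protein, had 36592 TPM in replicate 2 and 10.4 to 1016 TPM elsewhere, and Agr2, a protein disulfide isomerase of secretory cells, had 3753 TPM and 1.84 to 124 TPM elsewhere. Its negative end was led by Apoe, Apbb1, Mat2b, Dynlrb2 and Emc7, which were all listed at 0 in replicate 2. Without replicate 2 the first component held 34.9% of the variance, and replicate 4 lay at −54.4, against −4.83 to 18.3 for the others. Its ends were led by Mir546, Olfr672, Panx1, Psmd3 and Fam53c and by S100a8, S100a9, Vmo1, Wfdc18 and Olfr1258. Panx1, a pannexin channel, and Psmd3, a proteasome subunit, were listed at 0 in replicate 4, against 87.6 to 148 TPM and 38.5 to 184 TPM in the 7 other libraries.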

How the data were processed

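The data were 1 table of TPM for 18 libraries of sorted MOE cells, with 23847 rows and 23359 gene symbols. Per the paper's methods and the submitters' processing notes, the authors mapped Smart-seq2 reads to mm10 (GRCm38) with HISAT2 2.1.0 after Trimmomatic 0.36 and quantified genes with Cufflinks 2.2.1. How the deposited TPM were made from this output, which annotation served, and how strand and multiply matching reads were treated are not given in the sources used here. Library depth cannot be recovered from TPM.

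Libraries were grouped by their titles. The 488 rows that repeat a symbol were summed. OR genes were taken by symbol (Olfr followed by digits), leaving out 20 pseudogenes. Log values are log2(TPM + 1). Gene positions are from GENCODE M21 (GRCm38), which held 92.9% of the symbols. Scores, exact permutation tests of correlations over libraries (all orders of 9 or 8 libraries, Benjamini-Hochberg adjusted over 45 pairs, threshold 0.05) and sign-flip tests used Python 3.11.15, numpy 2.4.6 and pandas 2.3.3, and were tested on simulated data. Count models were not used on TPM. All p-values measure the spread between these libraries, which the labels do not tie to separate animals. Shared words are 50-base stretches of GENCODE transcripts. The 20 marker lists held 1 gene found under an older symbol (Hbb-bs as Beta-s) and 1 not found (Hbb-bt).

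Named genes were the markers Omp, Stoml3, S100a5, Olfr672 and Olfr15, the 25 highest medians, the 10 highest OR medians and 5 highest OR means, first ORs of a library, list members, the 10 genes of highest and of lowest SD, the ends of the first component and the 5 genes most like Omp. Olfr1030 was chosen after its values were seen. The members and lists were chosen with earlier results of these data known. Alternatives were other pseudocounts, thresholds, scalings and filters, pseudogenes included, and each replicate left out. Some list members and abundant genes are not reported here.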

Additional observations from a re-analysis of the deposited data

Results flagged for a closer look

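In 66 measures over the 9 libraries, 1 library lay far from the rest in 13, by Dixon's 95% criterion for the gap to the nearest other library. Chance gives about 1 such measure in 20 only where measures are independent and chosen beforehand. These were not: Scgb1c1 was included as the first gene of replicate 2, and several measures share the OR sum. No chance rate can therefore be set against the 13. Of the 13, 12 were in replicate 2. The OR sum was 6174 TPM there, against 13477 to 20251 in the others, and its score was 12.6, against 13.7 to 14.3. TPM per detected OR gene was 167 (14.9 to 62.9 elsewhere), the 10 first ORs held 73.5% of the OR sum (6.26 to 23.4%), and the 25 first genes held 28.9% of the library (15.1 to 19.8%). The olfactory transduction score was 8.02 (9.36 to 10.2) and the horizontal basal cell score 0 (3.87 to 5.21). On the log2(TPM + 1) scale Tmsb4x was 12.83 (13.31 to 13.52), Gng13 was 11.93 (12.94 to 13.86), Scgb1c1 was 16.13 (7.62 to 11.29), and Olfr15 and Olfr1347 were 0 (5.62 to 9.56 and 4.85 to 7.01). The remaining measure was Rn45s, listed at 0 in replicate 1, against 10.97 to 15.90 in the others.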

How the results depend on the processing

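No paired analysis was possible because the results describe 1 group of libraries. Of the 25 genes with the highest medians, 23 to 25 remained under each of 12 alternatives, and of the 10 most variable 7 to 10 did. The number of OR genes at 1 TPM or more in every library was 0. It was 1 above 0 TPM, 0 at 5 TPM and 0 to 30 when 1 library was left out (30 without replicate 2, 3 without replicate 7, 1 without replicate 8). The median rho of OR ranks was 0.17 to 0.25 when 1 library was left out, the median effective number was 292.0 to 420, and the class I log2 ratio was 0.15 to 0.42, with no exact p under 0.05. With 10 TPM as the minimum median, 59 OR genes were among the 100 most variable, against 17. The lower limit admits more OR genes than the 20 at 50 TPM, and their share of all genes passing it was not computed. These 2 counts therefore do not show a change in OR variability. Only 2 of the 10 least variable genes remained without replicate 2. The number of score pairs with an adjusted p under 0.05 was 0 over 9 libraries, and 0 to 2 when 1 library was left out (2 without replicate 2, 1 without replicate 7). Settings added after seeing the data left out replicate 2 with 1 more change: 2 pairs passed with TPM rescaled without the OR genes, 3 when replicate 4 was left out too, and 0 in the other 10. The correlation of mature OSN and progenitor scores, 0.02 over 9 libraries, was −0.28 by Spearman and −0.93 to 0.32 when 1 library was left out, with −0.93 without replicate 2 and 0.32 without replicate 8. The cause was not tested. Unknown depth limits every statement on genes at 0.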
